A study of Mus musculus with 6 samples.

Results

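The 10 immediate early genes were followed across the 3 groups of a mouse embryo array study: Fos, Fosb, Jun, Junb, Jund, Atf3, Egr1, Ier2, Dusp1 and Zfp36. They were chosen by symbol, as every probe set that the platform annotation assigns to 1 of these genes. This gave 12 probe sets for 10 of the 18193 genes named on the array, with a pair of probe sets each for Jun and Jund, and all 12 passed the filter on low values. RNA had been hybridised to 6 Affymetrix arrays, 2 for each group, all from ICR mice at 8.5 days post coitum and 3 to 4 somites, before blood circulates. The groups were Flk1-positive cells, named for the product of Kdr, a VEGF receptor of endothelial cells and their precursors; embryos proper lacking Flk1 (Flk1 KO); and embryos proper of the wild type (WT). No genotype beyond Flk1 positive cell is given for the cells, although the design text lists Flk1+/GFP embryos among the material. The labels do not state how the cells were isolated or how long that took. Isolated cells are set against embryos proper, so a difference of preparation and a difference of cell type cannot be told apart in these groups. In such bulk RNA, fewer cells of a type and less RNA per cell cannot be told apart either. Nothing in the labels says that the 2 arrays of a group stand for different animals or pools, so p-values cover no more than the variation between arrays, part or all of which may be technical.

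Immediate early genes are transcribed within minutes of a stimulus, without new protein synthesis, because the factors that switch them on (SRF with its ternary complex partners, and CREB) are already in the cell. FOS and JUN proteins pair through leucine zippers into the transcription factor AP-1, EGR1 is a zinc finger transcription factor, and DUSP1 and ZFP36 limit the response by dephosphorylating MAP kinases and by marking short-lived transcripts for decay. In endothelium, VEGF acting through FLK1 is a known inducer of several of them, and enzymatic dissociation of tissue into single cells is another.

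Promoter sequences were read for motifs that these genes might share, and no motif searched stood in all of them. RefSeq start sites (GRCm38.p6) were matched for 8 of the 10 genes, all but Egr1 and Ier2. The 250 bases before the start were searched on both strands for short motifs of inducible promoters. The 6 windows printed are those holding TGACG, the half-site of the cAMP response element bound by CREB and ATF proteins, or TGACATCA, an AP-1 and ATF variant. Each runs 5′ to 3′ on the strand of its gene, with these letters in capitals (as CGTCA where TGACG lies on the opposite strand). The windows are chr12:85473640-85473889, plus strand for Fos; chr7:19310046-19310295, minus strand for Fosb; chr4:95052223-95052472, minus strand for Jun. Those of the others are chr8:84978749-84978998, minus strand for Junb; chr1:191183334-191183583, minus strand for Atf3; chr17:26508473-26508722, minus strand for Dusp1.
Fos: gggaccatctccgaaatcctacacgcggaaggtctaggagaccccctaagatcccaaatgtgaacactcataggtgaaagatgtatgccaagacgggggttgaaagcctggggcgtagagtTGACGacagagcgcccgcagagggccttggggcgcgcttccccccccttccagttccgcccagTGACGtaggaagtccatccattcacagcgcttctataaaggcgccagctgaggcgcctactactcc
Fosb: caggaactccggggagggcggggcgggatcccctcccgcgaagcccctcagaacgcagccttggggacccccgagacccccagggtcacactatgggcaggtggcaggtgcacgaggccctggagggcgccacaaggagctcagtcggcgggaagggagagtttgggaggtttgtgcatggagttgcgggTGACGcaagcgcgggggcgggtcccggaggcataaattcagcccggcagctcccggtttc
Jun: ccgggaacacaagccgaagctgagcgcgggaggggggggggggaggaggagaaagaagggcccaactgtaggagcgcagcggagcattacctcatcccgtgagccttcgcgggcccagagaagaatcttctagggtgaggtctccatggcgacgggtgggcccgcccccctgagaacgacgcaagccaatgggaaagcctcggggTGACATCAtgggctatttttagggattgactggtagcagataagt
Junb: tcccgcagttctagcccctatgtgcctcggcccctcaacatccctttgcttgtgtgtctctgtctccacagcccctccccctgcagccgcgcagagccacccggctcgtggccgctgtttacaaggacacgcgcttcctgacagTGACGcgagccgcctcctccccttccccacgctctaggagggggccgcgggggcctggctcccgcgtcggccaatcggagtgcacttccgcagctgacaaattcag
Atf3: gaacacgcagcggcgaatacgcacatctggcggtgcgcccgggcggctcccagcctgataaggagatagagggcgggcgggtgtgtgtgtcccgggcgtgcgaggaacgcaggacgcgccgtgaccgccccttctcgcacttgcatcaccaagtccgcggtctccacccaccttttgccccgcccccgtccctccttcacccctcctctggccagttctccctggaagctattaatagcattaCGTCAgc
Dusp1: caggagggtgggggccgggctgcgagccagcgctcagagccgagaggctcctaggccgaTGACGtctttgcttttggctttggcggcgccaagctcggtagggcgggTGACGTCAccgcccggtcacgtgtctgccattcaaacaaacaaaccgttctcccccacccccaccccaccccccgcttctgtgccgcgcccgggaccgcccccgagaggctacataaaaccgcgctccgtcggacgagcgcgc
TGACG stood in 5 of the 8 windows, those of Fos, Fosb, Junb, Atf3 and Dusp1, against 17.8% of the 32851 promoter windows of the same length. The full palindrome TGACGTCA, which contains TGACG, stood in the Dusp1 window and in 1.55% of all windows. TGACATCA stood in the Jun window and in 2.93% of all windows. GCGGGGGCG, a site recognised by EGR1, stood in the Fosb and Zfp36 windows and in 2.57% of all windows. The CArG box of SRF stood in the Zfp36 window (1.47% of all windows) and TATAAA in the Fos window (12.4%). Sites further upstream than 250 bases, and any site of Egr1 or Ier2, were not read, so a motif missing here may still lie near the gene. TGACTCA, the AP-1 consensus, stood in 0 of the 8 windows and in 4.46% of all, and the Jund window held none of the motifs searched. A match describes letters in a window; no binding was measured here.

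Flk1-positive cells had higher signals than WT embryos for all 10 genes. By limma, each had an adjusted p between 0.000388 and 0.0190, against 11.6% of the 33778 probe sets tested that were higher at this threshold of 0.05. Both Flk1-positive arrays lay above both WT arrays for all 10, as they did for 31.3% of probe sets tested. The median difference was 2.69 on the log2 scale (6.45-fold), beside -0.04 over all probe sets tested. Differences are log2 values ± SE of signal + 21.61, a scale that understates the change of dim genes. A signal is the deposited linear intensity of a probe set, and background is the level of olfactory and vomeronasal receptor probe sets, 57.4 over the 6 arrays (49.1 to 78.3 on single ones). A group mean under the level of its own arrays counts as not above background. Within the 10 genes the differences spread widely, between 0.81 for Jund and 4.86 for Fos.

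**Figure D1:**
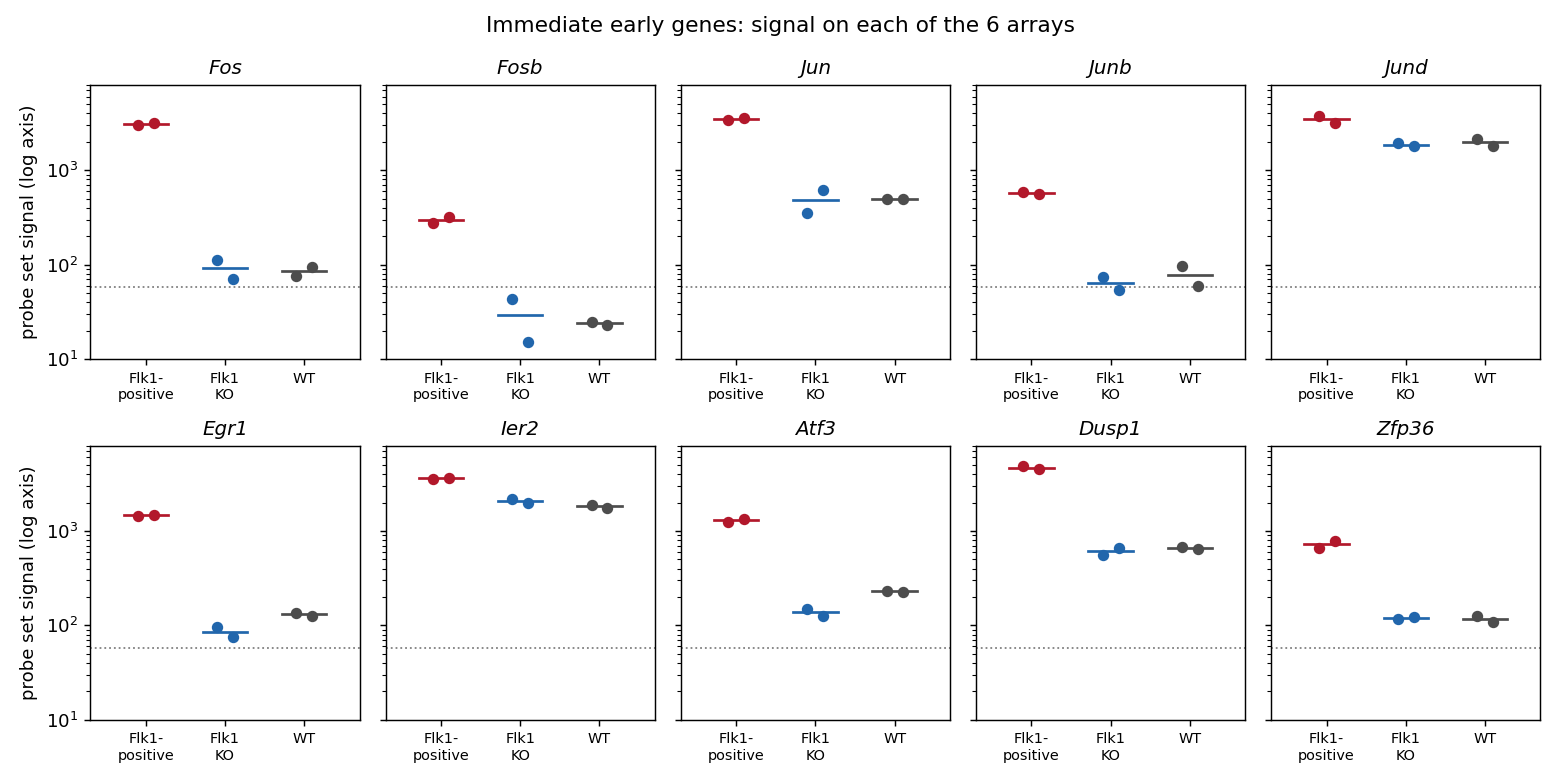
Signal of each member's brightest probe set on every array (log axis), with Flk1-positive cells at the left, Flk1 KO embryos in the middle and WT embryos at the right of each gene. Points are single arrays, short bars the means of 2 arrays and the dotted line the background level. In all 10 genes both Flk1-positive arrays lie above the 4 embryo arrays, with the narrowest gaps in Ier2 and Jund, and the Flk1 KO and WT points overlap in 7 of the 10.

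Of the FOS subunits of AP-1, Fos differed from the embryos by more than any other member and Fosb was dim in embryos. Fos, whose protein cannot pair with itself and needs a JUN partner, read 3008 and 3169 in Flk1-positive cells, 111.2 and 70.9 in Flk1 KO embryos, and 76.7 and 94.8 in WT embryos. Both Flk1-positive arrays were far above all 4 embryo arrays, whose values overlapped. Relative to WT embryos, Fos was 4.86 ± 0.21 higher (29.1-fold on this scale, limma adjusted p = 0.000388), and 12 of the 33778 probe sets had a larger difference. Fosb, which encodes a close relative of FOS, read 276.0 and 315.7 in Flk1-positive cells, 42.9 and 15.3 in Flk1 KO embryos, and 24.7 and 23.0 in WT embryos. Both embryo means of Fosb lay below the background level, so only a bound can be given. Flk1-positive cells had Fosb at least 4.10-fold above WT embryos (limma adjusted p = 0.00191), and at least 4.32-fold above Flk1 KO embryos (limma adjusted p = 0.00195).

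The JUN subunits, which can pair with themselves or with FOS proteins, divided by size. Jun read 3414 and 3607 in Flk1-positive cells, 348.9 and 618.4 in Flk1 KO embryos, and 492.6 and 490.9 in WT embryos. Flk1-positive cells were 2.78 ± 0.27 higher than WT embryos (limma adjusted p = 0.00177), with no overlap although the Flk1 KO arrays differed widely from each other. The other probe set of Jun read 1248 and 1491 in Flk1-positive cells, 276.8 and 259.5 in Flk1 KO embryos, and 345.6 and 306.3 in WT embryos. Its difference, 2.0 ± 0.15 (limma adjusted p = 0.000868), had the same direction and was smaller. Junb, which can oppose JUN at some targets, read 583.8 and 557.1 in Flk1-positive cells, 74.0 and 54.2 in Flk1 KO embryos, and 95.7 and 60.0 in WT embryos. The embryo arrays of Junb were close to background, and Flk1-positive cells were 2.60 ± 0.22 higher than WT embryos (limma adjusted p = 0.00127). Jund, the JUN gene with high basal expression in many tissues, read 3739 and 3180 in Flk1-positive cells, 1933 and 1806 in Flk1 KO embryos, and 2152 and 1786 in WT embryos. Here the embryos were already bright, and the difference was 0.81 ± 0.16 (1.75-fold, limma adjusted p = 0.0190). This Jund call was lost in 4 of 16 alternatives: without Flk1-positive replicate 1 (0.69, limma adjusted p = 0.0940), without WT replicate 1 (0.94, adjusted p = 0.0506), without WT replicate 2 (0.67, adjusted p = 0.102), and with the median of its probe sets (0.23, adjusted p = 0.535). The dim probe set of Jund, read in that median, was not above background in any group and gave -0.36 ± 0.41 (limma adjusted p = 0.566).

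Atf3, a stress-induced factor of the ATF family that pairs with JUN proteins, read 1254 and 1329 in Flk1-positive cells, 149.7 and 125.7 in Flk1 KO embryos, and 231.6 and 225.3 in WT embryos. The 3 groups did not overlap. Flk1-positive cells were 2.39 ± 0.14 higher than WT embryos (limma adjusted p = 0.000508).

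Egr1, a zinc finger factor induced through SRF and ternary complex factors, read 1449 and 1492 in Flk1-positive cells, 96.0 and 75.5 in Flk1 KO embryos, and 136.1 and 126.3 in WT embryos. It too separated into 3 groups without overlap. The difference from WT embryos, 3.29 ± 0.15 (9.77-fold, limma adjusted p = 0.000388), came second in size after Fos. Ier2, a nuclear protein named as an immediate early response gene, read 3544 and 3663 in Flk1-positive cells, 2176 and 1993 in Flk1 KO embryos, and 1890 and 1741 in WT embryos. Like Jund it was bright in all embryos, and its difference from WT embryos was 0.98 ± 0.13 (1.97-fold, limma adjusted p = 0.00502).

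The genes that end the response were higher as well. Dusp1, a nuclear phosphatase of MAP kinases, read 4833 and 4484 in Flk1-positive cells, 562.3 and 657.1 in Flk1 KO embryos, and 672.9 and 638.6 in WT embryos. Its difference from WT embryos was 2.79 ± 0.14 (6.91-fold, limma adjusted p = 0.000433), the size seen in Jun. Zfp36, which binds AU-rich elements and speeds transcript decay, read 665.5 and 781.0 in Flk1-positive cells, 116.2 and 121.4 in Flk1 KO embryos, and 126.3 and 108.0 in WT embryos. Flk1-positive cells were 2.42 ± 0.15 higher than WT embryos (limma adjusted p = 0.000547), and the 4 embryo arrays lay together.

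**Figure D2:**
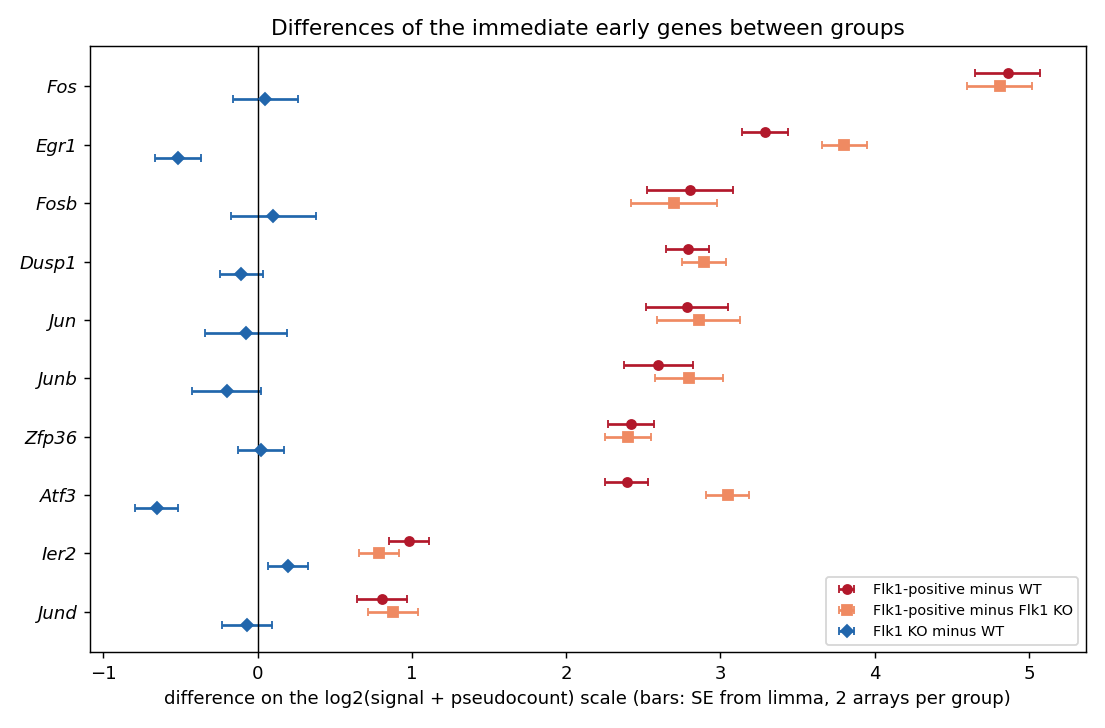
Log2 difference of each member for Flk1-positive cells minus WT embryos, Flk1-positive cells minus Flk1 KO embryos, and Flk1 KO minus WT embryos, with bars of 1 SE from limma (2 arrays per group). The 2 differences that involve Flk1-positive cells lie above 0 for all 10 genes, while those between Flk1 KO and WT embryos lie between -0.65 and 0.20.

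Between Flk1 KO and WT embryos, 0 of the 10 genes passed the test in either direction, where 0.0799% of probe sets tested were lower and 0% higher. The median difference was -0.07, beside -0.02 over all probe sets tested. At an unadjusted p under 0.05, 2 of the 10 genes were lower, Atf3 and Egr1, as were 1997 of the 33778 probe sets, while 837 were higher. Atf3 differed by -0.65 ± 0.14 (95% confidence interval -1.0 to -0.31, limma adjusted p = 0.320), with each Flk1 KO array below each WT array. Egr1 differed by -0.52 ± 0.15 (interval -0.89 to -0.15, limma adjusted p = 0.448), again with each Flk1 KO array below. Ier2 lay the other way, with both Flk1 KO arrays above both WT arrays and a difference of 0.20 ± 0.13 (limma adjusted p = 0.773). Such separation was common among probe sets tested, at 21.4% with both Flk1 KO arrays below and 16.7% with both above.

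In the other 7 genes the Flk1 KO and WT arrays overlapped by the brightest probe set. The interval of Fos ran from -0.48 to 0.58 and that of Jun from -0.74 to 0.59, so differences of up to about these sizes cannot be told from 0 at 2 arrays a group. The other probe set of Jun had both Flk1 KO arrays below both WT arrays. Its difference was -0.26 ± 0.15 (interval -0.64 to 0.12, limma adjusted p = 0.734). Dusp1 and Zfp36 had narrower intervals, -0.46 to 0.25 and -0.35 to 0.39. Fosb has no order here, since both groups were below background. Endothelial markers were dimmer in Flk1 KO embryos: 13 endothelial markers added up to 1382 and 1886 in Flk1 KO embryos and 5010 and 4853 in WT embryos, and 6 of the 13 passed the test as lower (median -1.71, or -1.18 with dim means set to the background level). Leaving out any 1 of the 6 arrays brought that count to 0. The 10 immediate early genes added up to signals of 5610 and 5538 in Flk1 KO embryos and 5899 and 5294 in WT embryos, values that overlap. Jund and Ier2 were the brightest members in embryos (1933 and 2176 on Flk1 KO array 1, 2152 and 1890 on WT array 1). They make up most of each sum, which therefore says little of dimmer members such as Atf3 and Egr1.

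Set against Flk1 KO embryos, Flk1-positive cells were again higher for all 10 genes, with 13.8% of probe sets tested higher at the same threshold. The arrays were apart for all 10, as for 32.2% of probe sets tested with the Flk1-positive arrays above. The same Flk1-positive arrays enter here, so these values are a second reading of those cells and not separate evidence. The largest differences were 4.81 ± 0.21 in Fos (limma adjusted p = 0.000227), 3.80 ± 0.15 in Egr1 (limma adjusted p = 0.000190) and 3.05 ± 0.14 in Atf3 (limma adjusted p = 0.000241). Jund and Ier2 were 0.88 ± 0.16 (limma adjusted p = 0.0133) and 0.78 ± 0.13 (limma adjusted p = 0.00933). The call of Jund was lost without Flk1-positive replicate 1 (0.76, limma adjusted p = 0.0698), without Flk1 KO replicate 2 (0.83, adjusted p = 0.0576) and with the median of its probe sets (0.35, adjusted p = 0.328), and that of Ier2 if Flk1-positive replicate 2 was left out (0.76, adjusted p = 0.0542). The median of the 10 differences was 2.83 (7.10-fold), beside -0.0024 over all probe sets tested.

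Other genes of the immediate early response were mixed. Of 44 such genes on the array, 43 were tested, and 21 were higher and 4 lower in Flk1-positive cells against WT embryos, with a median of 0.82 (0.70 with dim means set to background). Over all probe sets tested, 11.6% were higher and 14.4% lower. Klf2, a Krüppel-like factor of endothelium that is induced by flow in mature vessels, read 1139 and 1184 in Flk1-positive cells, 64.5 and 65.2 in Flk1 KO embryos, and 59.6 and 89.3 in WT embryos. It rose by 3.64 ± 0.18 (limma adjusted p = 0.000433), followed by the bZIP factor Cebpd (3.19 ± 0.14, adjusted p = 0.000388) and the kinase gene Plk2 (3.09 ± 0.16, adjusted p = 0.000450). Egr2, the relative of Egr1 that patterns the hindbrain, had the opposite direction: its signals were 73.2 and 56.9 in Flk1-positive cells, 331.9 and 272.9 in Flk1 KO embryos, and 384.1 and 413.2 in WT embryos. Its mean in Flk1-positive cells lay just under the background of their arrays, and Egr2 was at least 4.74-fold below WT embryos (limma adjusted p = 0.000805). The DNA damage gene Gadd45a was lower too, with a difference of -1.85 ± 0.15 (limma adjusted p = 0.00113), and Tnfaip3, which restrains NF-kappaB, was at least 1.48-fold lower (limma adjusted p = 0.0327), a call lost under 10 of the 16 alternatives. Fewer of these genes were lower whichever single array was left out. The count of higher genes also depended on the array left out, and it was 19 to 26 under the other alternatives. Between Flk1 KO and WT embryos, 0 of the 43 passed limma's test, and 4 were lower and 0 higher at an unadjusted p under 0.05.

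**Figure D3:**
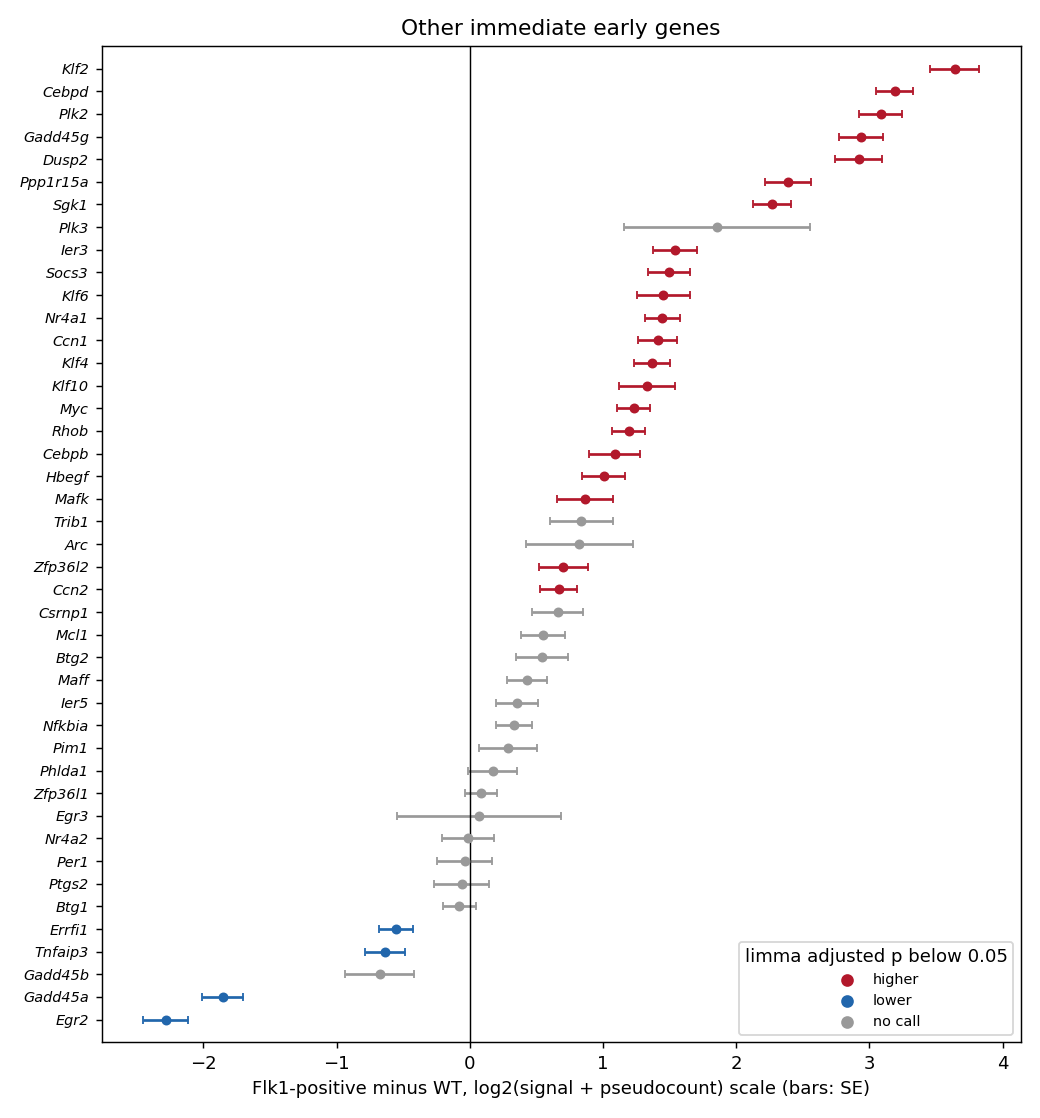
Log2 difference between Flk1-positive cells and WT embryos for the other immediate early genes tested, with bars of 1 SE from limma (2 arrays per group) and colours for the call. Values above 0 are higher in Flk1-positive cells, with Klf2 (3.64) and Cebpd (3.19) at the top and Egr2 (-2.28) at the bottom.

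Among 13 other AP-1 and bZIP genes, the possible partners of FOS and JUN, 6 were higher and 2 lower in Flk1-positive cells against WT embryos (median 0.58). The shares over all probe sets tested were 11.6% and 14.4%. Mafk, 1 of the 6, is also counted among the other immediate early genes. Its call and that of Batf were each lost under 9 of 16 alternatives, and that of Atf4 under 7. Fewer were higher whichever single array was left out. Fewer were lower when Flk1-positive replicate 1, WT replicate 1 or WT replicate 2 was left out. Fosl2, the FOS relative FRA-2, was 1.51 ± 0.25 higher (limma adjusted p = 0.00993), beside Maf (2.41 ± 0.17, adjusted p = 0.000669) and Crem (1.56 ± 0.19, adjusted p = 0.00361). Atf2, a constitutively expressed partner of JUN, was lower, with a difference of -0.99 ± 0.12 (limma adjusted p = 0.00380). Fosl1 was called lower (limma adjusted p = 0.0213), but both its means were under background, so it has no fold and no order. That call was lost under 4 of 15 alternatives. Fewer of the factors upstream passed the test: of 14 SRF and MAP kinase regulators, 3 were higher and 0 lower, with 3 lower at an unadjusted p under 0.05 (limma, median -0.04). Srf itself, at 1008 and 1048 in Flk1-positive cells and 1061 and 1073 in WT embryos, differed by -0.05 ± 0.13 (limma adjusted p = 0.794). The ternary complex factor Elk3 was 3.12 ± 0.19 higher (limma adjusted p = 0.000547), Elk4 1.11 ± 0.12 (adjusted p = 0.00283) and the JNK gene Mapk9 0.80 ± 0.16 (adjusted p = 0.0179). The call of Elk4 was lost with the median of its probe sets (0.32, limma adjusted p = 0.205), and that of Mapk9 without Flk1-positive replicate 2 (0.64, adjusted p = 0.0833), WT replicate 1 (0.87, adjusted p = 0.0706) or WT replicate 2 (0.74, adjusted p = 0.0997). Feedback genes of ERK went mostly the other way, with 1 of 11 higher and 6 lower (median -0.58), but 3 were lower without Flk1-positive replicate 1, and 2 without WT replicate 1. The one that was higher was Dusp6, an ERK phosphatase related to Dusp1 (1.0 ± 0.13, limma adjusted p = 0.00415). Etv4, an ERK-induced ETS factor, was at least 4.37-fold lower (limma adjusted p = 0.00163), Etv5 differed by -1.15 ± 0.20 (adjusted p = 0.0112) and the inhibitor Spry1 by -1.14 ± 0.21 (adjusted p = 0.0149). The calls of Etv5 and Spry1 did not hold when Flk1-positive replicate 1 or WT replicate 1 was left out, and that of Spry1 also without Flk1-positive replicate 2. Between Flk1 KO and WT embryos, 0 genes of these 3 lists passed limma's test. Past an unadjusted p of 0.05 were 0 AP-1 partners, 2 upstream regulators (1 higher, 1 lower) and 2 ERK feedback genes (1 higher, 1 lower). The lowest difference among the upstream regulators was -1.24, in Elk3. With the median pseudocount, or with a trend and robust prior, 1 of these regulators was called lower.

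Heat shock genes, which answer protein damage and are also known to rise when tissue is dissociated, were read beside the members. Of 13 tested, 3 were higher and 1 lower in Flk1-positive cells against WT embryos (median 0.16). The shares over all probe sets tested were 11.6% higher and 14.4% lower. The inducible chaperone gene Hspa1b read 1067 and 1163 in Flk1-positive cells, 188.1 and 219.0 in Flk1 KO embryos, and 250.1 and 227.9 in WT embryos, a difference from WT embryos of 2.13 ± 0.14 (limma adjusted p = 0.000630). Its near-identical copy Hspa1a was at least 2.38-fold higher (limma adjusted p = 0.0150), and the co-chaperone Dnajb4 was 1.39 ± 0.13 higher (adjusted p = 0.00155). Probes of Hspa1a and Hspa1b can share transcripts, so these values may not be separate. Hspb1 differed by -0.88 ± 0.17 (limma adjusted p = 0.0170), a call that did not hold without Flk1-positive replicate 2 (-0.76, adjusted p = 0.0842) or WT replicate 1 (-0.72, adjusted p = 0.0894), and that of Hspa1a ended without Flk1-positive replicate 1 (1.47, adjusted p = 0.0647) or WT replicate 2 (1.38, adjusted p = 0.0674). Between Flk1 KO and WT embryos 0 of the 13 passed limma's test, and 1 was higher at an unadjusted p under 0.05. The part that dissociation, activity in the embryo or cell type has in the values of the members was not tested.

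**Figure D4:**
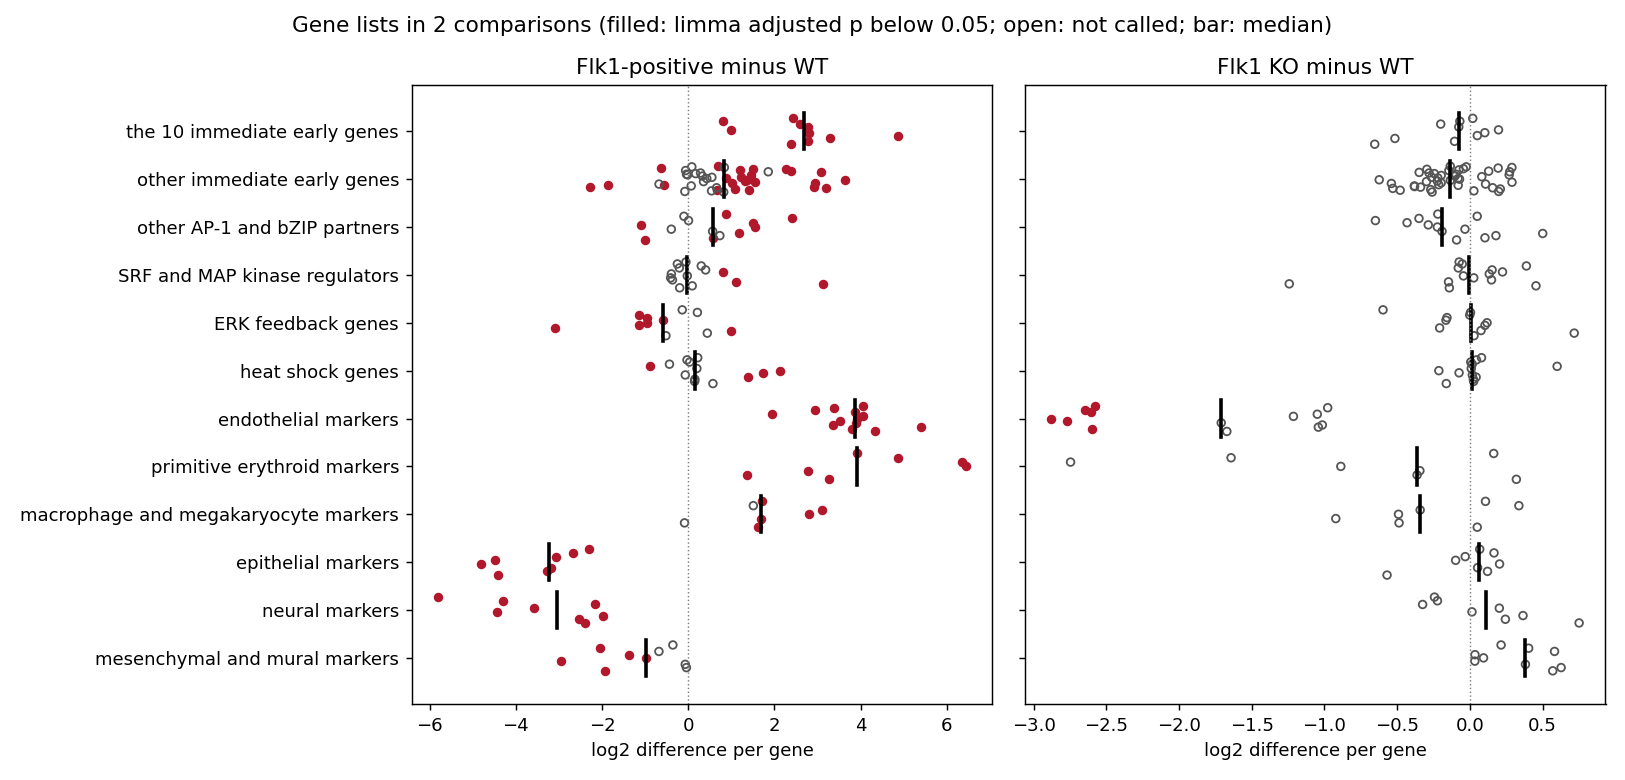
Log2 differences of the gene lists between Flk1-positive cells and WT embryos in one panel and between Flk1 KO and WT embryos in the other; points are genes (filled where called), bars are list medians, and the 2 panels have different x ranges. Against WT embryos, the medians of the members (2.69), the endothelial markers (3.86) and the erythroid markers (3.91) were above 0 in Flk1-positive cells and those of epithelial (-3.23) and neural (-3.05) markers below 0.

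The cells labelled Flk1-positive also differed from the embryos in cell makeup and in control probe sets, and these values stand beside every difference of the members. Kdr, the gene of Flk1, read 3309 and 3328 in Flk1-positive cells, 29.5 and 63.8 in Flk1 KO embryos, and 543.9 and 545.5 in WT embryos. All 13 endothelial markers were higher in Flk1-positive cells against WT embryos, with sums of 56389 and 57125 against 5010 and 4853. So were all 7 primitive erythroid markers tested (43518 and 45156 in sum in Flk1-positive cells, 405 and 271 in Flk1 KO embryos, and 1172 and 624 in WT embryos). Of 7 macrophage and megakaryocyte markers tested, 5 were higher, and the 9 on the array summed to 4547 and 4378 in Flk1-positive cells, 695 and 463 in Flk1 KO embryos, and 754 and 711 in WT embryos; Itgam and Cx3cr1 were not above background on either Flk1-positive array. The 8 epithelial and 8 neural markers were all lower, with epithelial sums of 2778 and 2962 in Flk1-positive cells against 25041 and 23528 in WT embryos. Of 9 mesenchymal and mural markers 5 were lower, a count of 4 to 6 under the alternatives that left no array out. Over all probe sets tested, 11.6% were higher and 14.4% lower. No marker was at the floor of 1 in Flk1-positive cells. The log2 ratio of 3′ to 5′ probe sets, a measure of RNA integrity and labelling, was 1.33 and 1.44 in Flk1-positive cells, 1.0 and 1.09 in Flk1 KO embryos, and 1.04 and 0.97 in WT embryos for the transferrin receptor. For beta-actin it was 0.26 and 0.29 in Flk1-positive cells, 0.47 and 0.58 in Flk1 KO embryos, and 0.57 and 0.55 in WT embryos, the opposite direction, while Gapdh showed -0.37 to -0.32 over the 6 arrays. Pyruvate carboxylase, a dimmer control, showed 0.89 and 1.17 in Flk1-positive cells and 1.28 and 1.35 in WT embryos. Its Flk1 KO values were 1.26 and 0.86. The part of blood cells and of RNA quality in the members' differences was not tested. Correlations between arrays were 0.980 to 0.985 within groups, 0.899 to 0.917 between Flk1-positive cells and embryos, and 0.977 to 0.983 between Flk1 KO and WT embryos.

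By likeness of profile (root mean square distance of centred log2 values over the 6 arrays, among 14946 genes), the genes nearest to Fos were Plek (0.22), Fermt3 (0.38) and Stab2 (0.38). Plek is known from platelets and leukocytes, Fermt3 from blood cells and Stab2 from sinusoidal endothelium. Egr1 had nearer neighbours, with Fmo1 (0.07), the sphingosine-1-phosphate transporter gene Spns2 (0.08) and Cebpd (0.13). Jun was nearest to Icam1 (0.10), an adhesion molecule of activated endothelium, then Anxa3 (0.14) and Selenop (0.14), and Dusp1 to Anxa3 (0.10), Arhgap31 (0.10) and Tcim (0.11). Junb was nearest to Pon3 (0.11), Slc9a3r2 (0.11) and AI467606 (0.13), and Fosb to Cavin3, Fbxo6 and Pear1, the distances of which (0.15 to 0.16) include the noise of its dim embryo values. For Zfp36 they were B3gnt2 (0.05), 4930486L24Rik (0.07) and Pon2 (0.09), and for Atf3 they were Smagp (0.08), Rgs18 (0.11) and Afap1l1 (0.11). Jund was nearest to Gmds (0.03), Ndufs5 (0.05) and Cib1 (0.05), and Ier2 to Itgb1bp1 (0.04), Sri (0.04) and Chmp2a (0.05). The points behind each distance are 6 arrays in 3 groups, so they mostly reflect the size of the group differences.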

How the data were processed

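Total RNA (RNeasy Micro kit) was biotin-labelled for Affymetrix arrays, per the labels' protocols. The deposited values are linear probe set intensity (signal) for 45101 probe sets; each array's trimmed mean, without the top and bottom 2%, was 500.003, so the authors' values had been scaled before deposit, by a program the labels do not name. The number of arrays limits the precision.

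Signals were used as log2(signal + 21.61), the 25th percentile of all values. Names came from the platform annotation (34958 with 1 symbol, 932 with several, 9211 with none). After leaving out controls and probe sets under the 25th percentile of mean log2 value, 33778 were tested by limma 3.58.1 (R 4.3.3; lmFit, eBayes; group as the only term, 6 arrays, 3 residual and 2.49 prior degrees of freedom, two-sided), with Benjamini-Hochberg adjustment (threshold 0.05). All 3 groups were fitted together because each has only 2 arrays. The brightest probe set stands for a gene, and background is the 95th percentile of 80 receptor probe sets. Where a dimmer mean lay below it, a bound is given. Members and lists were chosen with earlier results of these data known. Named were all members, up to 3 rising and 3 falling genes of a list, 3 nearest genes for each member, Kdr and the control probe sets. Promoters were read from a RefSeq table, and figures drawn with matplotlib 3.10.9 in Python 3.11.15. Alternatives were the pseudocount, the filter, scaling, prior, groups fitted, a replicate block, the probe set rule and each array left out.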

Additional observations from a re-analysis of the deposited data

How the results depend on the processing

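With 2 arrays a group and 3 residual degrees of freedom, calls on single arrays are fragile, and genes near background have bounds only. Flk1-positive cells against WT embryos gave 9 or 10 members higher under all 16 alternatives, and against Flk1 KO embryos 9 or 10; 0 members were called lower between Flk1 KO and WT embryos under any of the 16. Of 159 member differences under the alternatives, 155 kept direction and side of the threshold in each of the comparisons with Flk1-positive cells, and 4 lost the call, all given with the results. Fosb had no value with the filter at the 50th percentile. Between Flk1 KO and WT embryos 148 of 159 kept their direction, and the 11 that turned were all without a call.

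Leaving out single arrays, the difference between Flk1 KO and WT embryos ran from -0.21 to 0.31 for Fos, -0.30 to 0.51 for Fosb, -0.47 to 0.32 for Jun, -0.46 to 0.061 for Junb, -0.20 to 0.064 for Jund, -0.21 to 0.0034 for Dusp1 and -0.075 to 0.12 for Zfp36. Median centring, which moved the median of all probe sets to 0.08, gave 0.026 for Jun and 0.033 for Jund. Spred2 was 0.43 higher in Flk1-positive cells than WT with the median of its probe sets, against -0.58 with its brightest. The cause was not tested.

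The labels do not say whether arrays with the same replicate number share anything else. Deviations of same-numbered arrays correlated at 0.0080 (Flk1-positive and WT), 0.023 (Flk1 KO and WT) and 0.029 (Flk1-positive and Flk1 KO). Such values show no strong shared effect but cannot show that none exists. With the replicate number as a block, 10 members were higher in Flk1-positive cells against WT embryos, 10 against Flk1 KO embryos, and 0 lower in Flk1 KO embryos. The block lowered the count of other AP-1 and bZIP genes higher in Flk1-positive cells against WT embryos to 3, against 6 without it, as did leaving out the filter on low values.

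Counts over lists and over all probe sets were read under these alternatives after seeing the data. Of the lists, ERK feedback genes higher became 2 of 11 under 4 alternatives, SRF and MAP kinase regulators lower became 1 or 3, and endothelial markers lower in Flk1 KO embryos became 12 with a trend and robust prior and 0 with the 10th percentile pseudocount, 2 groups fitted or the block. Counts over all probe sets moved more. Against WT embryos, 3924 higher in Flk1-positive cells became 2130 to 2243 without single arrays of those groups, and 4879 lower became 2222 to 3082; by the median of a gene's probe sets they were 2014 and 2743. Against Flk1 KO embryos, 4673 higher became 2610 without Flk1-positive replicate 1, 2886 without replicate 2 and 2134 with that median, and 5195 lower became 3361, 3268 and 2920 under the same settings. The 27 lower in Flk1 KO than WT embryos became 0 when any 1 array was left out, with the 10th percentile pseudocount, with 2 groups fitted or with the block. They were 7 with no filter, 12 with quantile normalization, 14 with median centring, 68 with the median pseudocount, 86 with the filter at the 50th percentile and 121 with a trend and robust prior; probe sets higher, 0 in the fit reported, were 6 with the median pseudocount, 7 with the 50th percentile filter, 13 with the trend and 3 with the median of probe sets.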
